A study of Arabidopsis thaliana with 4 samples.

Results

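The genes described here are 33 nuclear genes of the thylakoid membrane, chosen by gene identifier: 12 encode subunits of photosystem I, 10 of photosystem II, 4 plastocyanin or subunits of the cytochrome b6f complex, 4 leaf-type ferredoxin or ferredoxin-NADP reductase (FNR), and 3 subunits of the chloroplast ATP synthase. They are 33 of 33602 gene entries in the deposited expression table, and all 33 had a value in every library and passed the filter on low values. Wild-type Arabidopsis thaliana seedlings of the Col-0 accession were raised for 4 days in darkness at 22 °C, and then either stayed dark or received white light of 100 µmol photons per square metre per second for 4 h. These seedlings gave total RNA and polysomal RNA (RNA in complexes with several ribosomes), so that the groups are total dark, total light, polysomal dark and polysomal light, each with 1 library. No difference described here therefore has a replicate check, no p-value was computed, and every interval covers counting error only. Both kinds of RNA were also extracted by different methods, so that a difference between fractions and one between extractions cannot be told apart.

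In the thylakoid membrane, photosystem II takes electrons from water, the cytochrome b6f complex and plastocyanin pass them to photosystem I, and ferredoxin and FNR carry them on to NADPH. The proton gradient built along the way drives the ATP synthase. The reaction centre proteins and most cofactor-binding subunits are encoded in the plastid, whereas the subunits described here are made in the cytosol and imported. Seedlings grown in darkness hold etioplasts without a working electron transport chain, and light starts the assembly of thylakoids.

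Depth and labels were checked first. The 4 libraries listed 61006149 to 91087442 reads, and the members had between 848 and 335969 reads each, so that counting error was small for every one. The etiolated markers PORA and PIL1 were lower in the light in both fractions and the light markers ELIP1 and CHS were higher, which fits the labels of the libraries. Of 4 root markers 3 were measured, with a summed level of 25.7 to 38.0 RPKM (reads for each kilobase of a gene, adjusted to library size), and all 3 seed markers were measured. The seed markers summed to 47.9 RPKM (dark) and 23.6 (light) in total mRNA and 244 (dark) and 78.3 (light) in polysomal mRNA, and their part in the results below was not tested.

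Before any comparison, the levels themselves showed how much of the messenger pool these genes took. The 33 genes held 0.362% of the listed reads (dark) and 2.06% (light) in total mRNA and 1.44% (dark) and 6.88% (light) in polysomal mRNA. The summed level was 3345 RPKM in total dark and 19763 in total light, a 5.91-fold difference, and 16802 and 81878 RPKM in the polysomal libraries, a 4.87-fold difference. In seedlings sequenced in bulk, more cells that express a gene and more RNA per cell cannot be told apart. Within a library the genes spread over a wide range: the highest was 16.8 times the lowest in total dark (PSBO1 over PSBTN), 17.5 times in total light (FD2 over PSAE2), 35.6 times in polysomal dark (PSAL over LFNR2) and 36.7 times in polysomal light (FD2 over LFNR2). FD2 ranked among the 3 most abundant members in all 4 libraries.

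**Figure D1:**
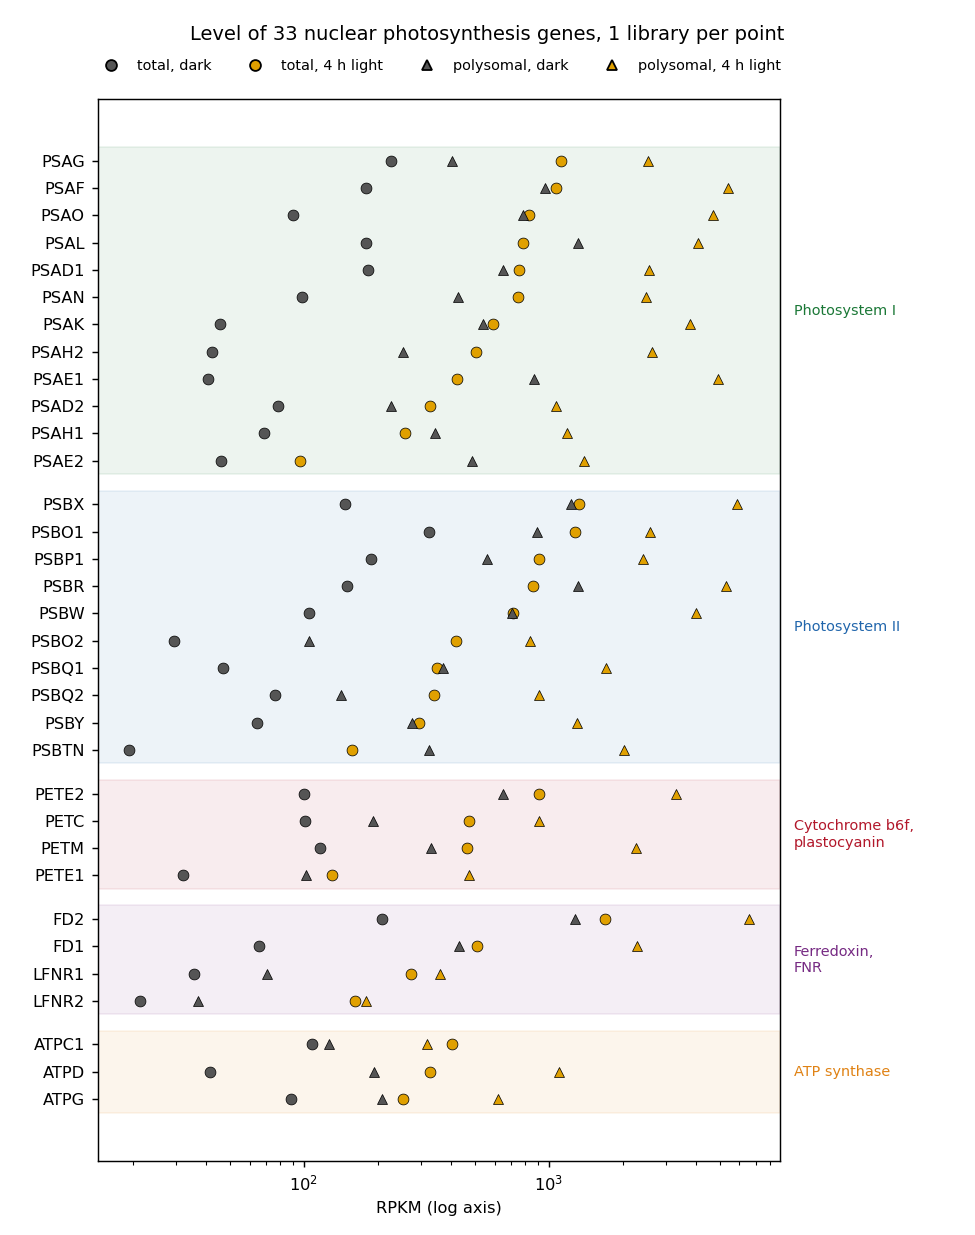
Level of each of the 33 genes in RPKM (log axis) in the 4 libraries, grouped by complex and ordered within a group by the level in total light. Circles are total and triangles polysomal mRNA, dark grey is darkness and yellow is 4 h of light, and for every gene the light point lies to the right of the dark point of the same fraction.

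Light against dark in total mRNA asked which subunit genes changed in abundance during the first hours of greening. All 33 were at least 2-fold higher in the light on the log2 (RPKM + 1) scale and none was lower, where 10.7% of the 17684 genes tested were at least 2-fold higher and 5.73% at least 2-fold lower. Their median log2 ratio was 2.57, against -0.02 over all genes tested. The members did not share 1 size of change: the log2 ratio ran from 1.06 for PSAE2 to 3.77 for PSBO2. In polysomal mRNA all 33 were again at least 2-fold higher (9.35% of all genes higher, 10.3% lower), with a median log2 ratio of 2.33 against -0.17 over all genes, from 1.31 for ATPC1 to 3.37 for PSAH2. With TMM size factors 12% of all genes were higher and 7.63% lower in polysomal light. The range was narrower in polysomal than in total mRNA, and the light libraries lay above the dark libraries for every gene in both fractions.

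Among photosystem I genes, the peripheral subunits PSAK (AT1G30380), which helps to hold the antenna, and PSAO (AT1G08380), which takes part in energy balance between the photosystems, had large light ratios. PSAK stood at 45.6 RPKM (dark) and 594 (light) in total mRNA and 540 (dark) and 3761 (light) in polysomal mRNA. That is a 13.0-fold difference in total mRNA (95% interval 12.5 to 13.6), the highest in this complex, and a 6.97-fold difference in polysomal mRNA (6.88 to 7.05). PSAO rose 9.22-fold in total and 5.93-fold in polysomal mRNA. PSAF (AT1G31330), which docks plastocyanin, rose 5.97-fold and 5.58-fold in that order, PSAN (AT5G64040), also on the lumen side, 7.56-fold and 5.88-fold, and PSAL (AT4G12800), a membrane subunit beside PSAH, 4.36-fold and 3.09-fold. PSAG (AT1G55670), a membrane subunit related to PSAK, was among 9 members with the larger fold in polysomal mRNA, 6.28-fold (6.20 to 6.37) against 4.93-fold (4.85 to 5.02) in total mRNA. PSAG and PSAK thus lay on opposite sides of equal ratios: the 2 intervals of each gene do not overlap. How many members lay on the side of PSAG depended on the scale, and with TMM size factors 14 did. The PSAD, PSAE and PSAH genes come in pairs and are described below.

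Among photosystem II genes, the subunits of the oxygen-evolving complex and the small membrane subunits were measured. PSBP1 (AT1G06680), which encodes the middle-sized extrinsic protein of the oxygen-evolving complex, rose 4.81-fold in total and 4.32-fold in polysomal mRNA. PSBX (AT2G06520), a small membrane subunit, stood at 147 RPKM (dark) and 1332 (light) in total mRNA and 1237 (dark) and 5854 (light) in polysomal mRNA. Its fold of 9.08 in total mRNA (8.87 to 9.31) was 4.73 in polysomal mRNA (4.69 to 4.77), the widest gap of any member in that direction. PSBTN (AT3G21055), a small lumenal subunit and the least abundant member in total dark with 19.2 RPKM, reached 157 in total light and went from 324 to 2028 in polysomal mRNA. PSBW (AT2G30570), needed for supercomplex stability, rose 6.79-fold and 5.65-fold in total and polysomal mRNA, PSBR (AT1G79040), which helps to bind the oxygen-evolving complex, 5.78-fold and 4.03-fold, and PSBY (AT1G67740), a small subunit near cytochrome b559, 4.56-fold and 4.69-fold. For PSBY alone in this complex the intervals of both folds overlap, 4.43 to 4.70 and 4.62 to 4.76. Such intervals do not cover the scale between libraries. With TMM size factors the log2 light ratio of PSBY was 2.14 in total and 2.43 in polysomal mRNA, against 2.17 and 2.23 without them.

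In the middle of the chain, PETC (AT4G03280), the Rieske iron-sulfur protein of the cytochrome b6f complex, and PETM (AT2G26500), a small subunit of the same complex, behaved unlike each other. PETC stood at 101 RPKM (dark) and 474 (light) in total mRNA and 192 (dark) and 910 (light) in polysomal mRNA. Its folds of 4.70 (4.59 to 4.81) and 4.74 (4.66 to 4.82) have overlapping intervals. With TMM size factors the log2 light ratio of PETC was 2.19 in total and 2.44 in polysomal mRNA, against 2.22 and 2.24 without them. PETM stood at 116, 463, 330 and 2264 RPKM in the order of libraries given for PETC. Its fold was 3.99 (3.89 to 4.09) in total and 6.87 (6.77 to 6.98) in polysomal mRNA, the widest gap of any member toward polysomal mRNA.

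The ATP synthase genes held the smallest light ratio outside photosystem I. ATPG (AT4G32260), which encodes a subunit of the peripheral stalk, stood at 88.6 RPKM (dark) and 253 (light) in total mRNA and 208 (dark) and 621 (light) in polysomal mRNA. ATPD (AT4G09650), the delta subunit that joins the stalk to the catalytic head, stood at 41.4, 327, 193 and 1103 RPKM in that order. ATPC1 (AT4G04640), the rotating gamma subunit that carries the redox switch, stood at 108, 404, 127 and 317 RPKM. ATPG rose 2.86-fold in total mRNA (2.78 to 2.94) and ATPD 7.90-fold (7.62 to 8.19), so the members of this 1 enzyme differed in light ratio by more than their counting intervals. In polysomal mRNA ATPC1 had the smallest fold of all 33 genes, 2.49 (2.44 to 2.54).

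**Figure D2:**
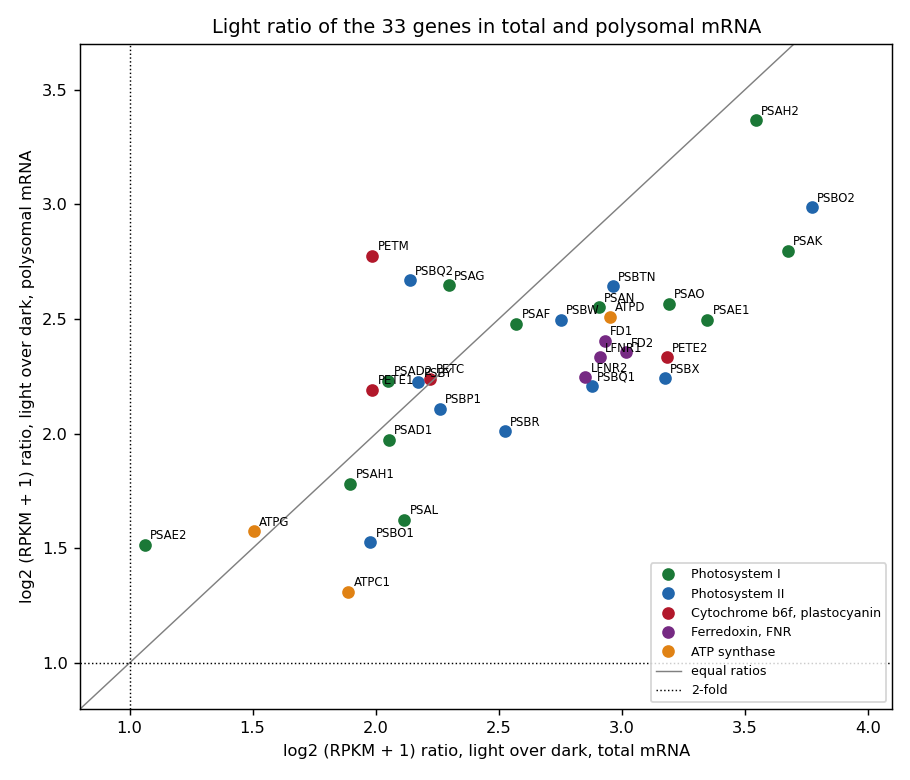
Light over dark log2 (RPKM + 1) ratio of each gene in total mRNA (horizontal) and polysomal mRNA (vertical), coloured by complex, with the line of equal ratios and dotted lines at 2-fold. All 33 points lie beyond 2-fold on both axes, 24 lie below the line of equal ratios, and PETM, PSBQ2, PSAE2 and PSAG lie farthest above it.

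Polysomal against total mRNA in the same light condition asked how these messengers divide between the fractions. In the dark 27 of 33 members were at least 2-fold higher in polysomal mRNA and none lower (16.5% of all genes higher, 16.2% lower), with a median log2 ratio of 2.19 against -0.14. In the light 29 of 33 were higher and none lower (12.8% of all genes higher, 21.4% lower), with a median of 1.95 against -0.31. With TMM size factors the split over all genes was 21.1% higher and 10.3% lower in darkness and 21.5% and 9.06% after light. PSAE1, a stromal subunit near the ferredoxin docking site, had the highest value in the dark, at 40.6 RPKM in the total library and 867 in the polysomal library, a 21.4-fold difference (20.5 to 22.3). PSBTN followed with 16.8-fold (15.7 to 18.1). At the other end ATPC1 was 1.17-fold higher (1.14 to 1.20) in the dark, and in the light its polysomal level was 0.784 times the total level (0.773 to 0.794), a log2 ratio of -0.35 that became 0.17 with TMM size factors. The other members under 2-fold in the dark were LFNR2 at 1.72-fold, PSAG at 1.78-fold, PSBQ2 at 1.86-fold, PETC at 1.90-fold and LFNR1 at 1.98-fold. In the light those under 2-fold were ATPC1, LFNR2 at 1.11-fold, LFNR1 at 1.31-fold and PETC at 1.92-fold.

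Gene length moved with this ratio. The members are 0.67 to 1.68 kb long with a median of 1.00 kb, where the median gene tested has 1.65 kb, and short genes had higher polysomal over total ratios over the whole table. After a running median over gene length was removed, 24 members stood at least 2-fold above it in darkness and 22 after light, where 1773 and 1340 of the 17684 genes did, and the median member ratio was 1.55 and 1.31 in log2. PSAE1 then stood 3.29 above the trend in the dark and PSBTN 2.57, whereas PSAG lay on it at 0.00 and ATPC1, the longest member, stood 0.42 above it. The length implied by deposited reads and RPKM of the polysomal dark library also differed from the deposited length by gene. It was 75.9% (PETE1) to 101% (PSBQ2) of the deposited length when the median of genes over 3 kb is set to 100%, whereas total RPKM followed from the deposited length. Whether the authors used another length for polysomal RPKM was not tested. RPKM recomputed from deposited reads and length gave medians of 2.01 and 1.78 for darkness and light.

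The light shift of the polysomal over total ratio, which is the polysomal light ratio minus the total light ratio, was under 2-fold for every member. None was at least 2-fold higher or lower, where 0.741% and 3.27% of all genes were. The median was -0.35 against -0.18 over all genes, and 20 members lay below the median of all genes and 13 above it. The values ran from -0.93 for PSBX, -0.88 for PSAK, -0.85 for PSAE1 and -0.85 for PETE2 up to 0.45 for PSAE2, 0.53 for PSBQ2 and 0.79 for PETM. All 4 ferredoxin and FNR genes shifted by nearly the same amount, -0.66 to -0.53. With TMM size factors the median over all genes moved to 0.03 and that of the members to -0.12, and PETM passed 2-fold at 1.03.

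The following facts bear on these levels. On the reference 11 of the 33 members overlap another annotated gene, namely PSAD2, PSAE1, PSAE2, PSAG, PSAH1, PSAH2, PSAN, PSBP1, PSBR, LFNR1 and FD1, and whether counting used strand is not given in the labels, so that reads of the partner gene may be included. Polysomal reads that are not whole numbers, which reads divided between genes would give, occur in 8 members.

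Several of these proteins are encoded by 2 nuclear genes each, and 8 such pairs, 16 of the 33 members, allowed a comparison of 2 copies of the same protein in the same libraries. The coding sequences of the copies are 75.0% (PETE) to 88.0% (PSAD) identical on the RefSeq TAIR10.1 genome, and the longest stretch that a pair shares without a mismatch is 17 bases (PETE and LFNR) to 35 bases (PSAD). Differences between copies are of log2 RPKM ratios without a pseudocount, with Woolf intervals from the reads. In 5 pairs the copies differed in total light ratio by at least 0.75, and in the PSAD, LFNR and FD pairs by at most 0.07. With a pseudocount of 1 the PSBQ and FD differences in total mRNA were 0.74 and -0.09, and that of PSAD was 0.0033, no longer below 0.

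PSAE1 (AT4G28750) and PSAE2 (AT2G20260) differed most of the 8 pairs in total light ratio, though not in polysomal mRNA, where the PSAH and PSBO pairs differed more. PSAE1 stood at 40.6 RPKM (dark) and 422 (light) in total mRNA and 867 (dark) and 4903 (light) in polysomal mRNA. PSAE2 stood at 45.8, 96.8, 486 and 1390 RPKM in that order. In darkness the copies were thus close in total mRNA, with PSAE1 at 46.9% of the pair (45.4 to 48.5), and in the light PSAE1 made up 81.3% (80.9 to 81.7). As a share of deposited reads, which does not allow for gene length, PSAE1 held 51.4% in total dark, so which copy led there depended on the scale. The log2 light ratio of PSAE1 was higher than that of PSAE2 by 2.30 in total mRNA (2.20 to 2.40) and by 0.98 in polysomal mRNA (0.96 to 1.01). In polysomal mRNA PSAE1 held 64.1% (dark) and 77.9% (light).

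The PSAH pair changed its order. PSAH1 (AT3G16140) and PSAH2 (AT1G52230) encode a subunit at the docking site of the mobile antenna. PSAH1 stood at 68.9 RPKM (dark) and 259 (light) in total mRNA and 343 (dark) and 1183 (light) in polysomal mRNA, and PSAH2 at 42.2, 503, 254 and 2630 RPKM. PSAH1 was therefore the major copy in both dark libraries, with 62.0% and 57.5% of the pair, and the minor copy in both light libraries, with 34.0% and 31.0%. The log2 light ratio of PSAH1 was lower than that of PSAH2, a difference of -1.66 (-1.75 to -1.58) in total and -1.59 (-1.62 to -1.55) in polysomal mRNA.

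The promoters of these 2 pairs are shown because the copies of each encode the same subunit but differ in light ratio. Copies of the PSBO, PSBQ and PETE pairs also differ in total light ratio, and their windows are not shown. The 250 bases before the annotated start of each gene were read from the RefSeq TAIR10.1 genome on the gene's strand, at chr4:14204062-14204311 (minus strand) for PSAE1, chr2:8736484-8736733 (plus) for PSAE2, chr3:5469595-5469844 (minus) for PSAH1 and chr1:19454548-19454797 (plus) for PSAH2. Capitals mark matches on either strand to the G-box CACGTG, the I-box core GATAAG, the CCAAT box CCAAT, the site II core GGGCC and the TATA box TATAAA, and matches that overlap each other are joined.
PSAE1: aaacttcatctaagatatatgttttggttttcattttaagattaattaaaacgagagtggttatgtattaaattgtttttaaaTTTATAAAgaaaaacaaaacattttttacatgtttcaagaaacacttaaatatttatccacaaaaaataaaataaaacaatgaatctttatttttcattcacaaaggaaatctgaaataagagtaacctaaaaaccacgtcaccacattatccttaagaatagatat
PSAE2: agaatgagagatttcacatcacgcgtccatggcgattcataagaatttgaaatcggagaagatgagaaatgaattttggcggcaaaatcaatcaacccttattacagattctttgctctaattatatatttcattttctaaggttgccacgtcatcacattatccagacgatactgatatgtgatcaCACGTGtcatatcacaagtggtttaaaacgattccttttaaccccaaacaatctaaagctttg
PSAH1: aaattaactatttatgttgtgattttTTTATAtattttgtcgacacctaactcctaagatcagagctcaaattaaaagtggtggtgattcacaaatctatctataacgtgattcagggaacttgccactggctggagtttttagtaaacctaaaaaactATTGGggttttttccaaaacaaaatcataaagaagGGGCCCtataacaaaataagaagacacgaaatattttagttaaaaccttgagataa
PSAH2: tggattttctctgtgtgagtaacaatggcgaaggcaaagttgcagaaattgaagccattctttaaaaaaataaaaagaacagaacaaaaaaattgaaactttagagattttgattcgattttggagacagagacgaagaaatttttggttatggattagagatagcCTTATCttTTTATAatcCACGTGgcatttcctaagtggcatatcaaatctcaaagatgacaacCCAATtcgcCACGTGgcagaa
A G-box stood 63 bases before the start in PSAE2, the copy with the smaller light ratio, and 67 and 12 bases before it in PSAH2, the copy with the larger one. No G-box letters are in the windows of PSAE1 and PSAH1. In the PSBO and PETE pairs neither copy has these letters, and in the PSBQ pair both copies have them. Over the 33 members 6 windows hold CACGTG (18.2%), against 6.49% of the windows of 27444 nuclear protein-coding genes and 7.61% of those of genes tested here. Those 6 are PSAE2, PSAH2, PSBQ1, PSBQ2, PSBTN and ATPD. Against the windows of genes tested here, the I-box core GATAAG is in 27.3% of the members' windows and 12.6% of those, GGGCC in 30.3% and 19.9%, CCAAT in 48.5% and 48.1%, TATAAA in 51.5% and 46.1%, and the evening element AAAATATCT in 3.03% and 2.50%. These shares describe letters in a window and no test was made of them.

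The PSBO pair encodes the extrinsic protein that stabilises the manganese cluster of photosystem II. PSBO1 (AT5G66570) was the most abundant member in total dark at 323 RPKM, and stood at 1275 in total light and at 895 (dark) and 2578 (light) in polysomal mRNA. PSBO2 (AT3G50820) stood at 29.6, 417, 105 and 840 RPKM in that order, and its 14.1-fold difference in total mRNA (13.5 to 14.7) was the largest of the 33 genes. PSBO1 remained the major copy, with 91.6% of the pair (dark) and 75.4% (light) in total mRNA and 89.5% (dark) and 75.4% (light) in polysomal mRNA. The difference in log2 light ratio, PSBO1 minus PSBO2, was -1.84 (-1.90 to -1.78) in total and -1.47 (-1.51 to -1.44) in polysomal mRNA.

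The PSBQ pair, the smallest extrinsic protein of the oxygen-evolving complex, had differences in light ratio of opposite sign in the 2 fractions. PSBQ1 (AT4G21280) stood at 46.6 RPKM (dark) and 349 (light) in total mRNA and 369 (dark) and 1710 (light) in polysomal mRNA, and PSBQ2 (AT4G05180) at 76.3, 339, 142 and 911. PSBQ1 was 37.9% of the pair in total dark and 50.7% in total light, but 72.2% in polysomal dark and 65.3% in polysomal light. By deposited reads its share in total light was 47.4%, so that neither copy led there on both scales. Its log2 light ratio exceeded that of PSBQ2 by 0.75 (0.68 to 0.82) in total mRNA and fell short of it in polysomal mRNA, at -0.47 (-0.50 to -0.43). Both genes carry the G-box letters in the window before the start.

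Plastocyanin, the copper protein that carries electrons to photosystem I, is encoded by PETE1 (AT1G76100) and PETE2 (AT1G20340). PETE1 stood at 32.1 RPKM (dark) and 130 (light) in total mRNA and 102 (dark) and 471 (light) in polysomal mRNA, and PETE2 at 100.0, 915, 651 and 3290. PETE2 was the major copy throughout, and the share of PETE1 was 24.3% in total dark, but 12.4% in total light and 13.6% and 12.5% in the polysomal pair of libraries. Total dark was thus the library that stood apart. The difference in log2 light ratio, PETE1 minus PETE2, was -1.17 (-1.25 to -1.10) in total and -0.13 (-0.18 to -0.09) in polysomal mRNA.

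The other 3 pairs kept nearly constant proportions. PSAD1 (AT4G02770) and PSAD2 (AT1G03130), the stromal subunit that docks ferredoxin, differed in log2 light ratio by -0.0046 in total mRNA (-0.05 to 0.05) and by -0.26 in polysomal mRNA (-0.29 to -0.23). PSAD1 stood at 182 RPKM (dark) and 759 (light) in total mRNA and 649 (dark) and 2555 (light) in polysomal mRNA, and PSAD2 at 78.2, 327, 227 and 1070. Both genes rose, and PSAD1 held 70.0% of the pair (dark) and 69.9% (light) in total mRNA and 74.1% (dark) and 70.5% (light) in polysomal mRNA. For FNR, LFNR1 (AT5G66190) stood at 35.6, 274, 70.5 and 360 RPKM in the same order of libraries and LFNR2 (AT1G20020) at 21.5, 161, 36.9 and 179. LFNR1 held 62.4% to 66.8% of that pair, and the difference in log2 light ratio was 0.04 (-0.04 to 0.12) in total and 0.07 (0.01 to 0.13) in polysomal mRNA. For leaf ferredoxin, FD1 (AT1G10960) stood at 65.8, 508, 431 and 2288 RPKM and FD2 (AT1G60950) at 208, 1692, 1281 and 6560. FD2, the more abundant copy, was the most abundant of all members in both light libraries, and FD1 held 23.1% to 25.9% of the pair. The copies of ferredoxin differed in log2 light ratio by -0.07 (-0.13 to -0.02) in total and by 0.05 (0.03 to 0.08) in polysomal mRNA.

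**Figure D3:**
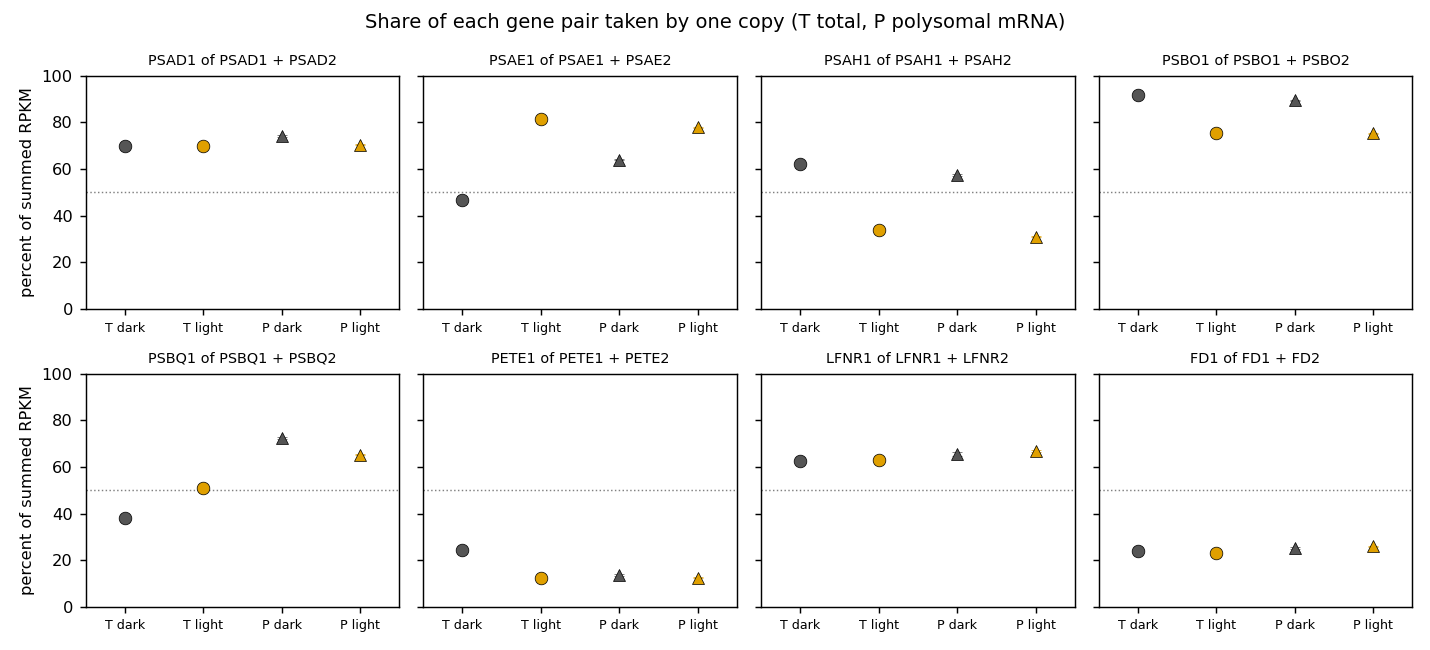
Share of each gene pair's summed RPKM taken by the named copy, in percent, in total dark, total light, polysomal dark and polysomal light; bars are exact 95% intervals from the reads and are mostly smaller than the points. PSAH1 goes from above to below 50% with light in both fractions, PSAE1 and PSBO1 move in opposite directions with light, and the PSAD, LFNR and FD pairs keep nearly constant shares.

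Splicing was recorded for 5 of the 33 genes, with 8 events: 6 retained introns and 2 alternative donor or acceptor events. That is 15.2% of the members, where 52.0% of the genes tested have an event. Of the members 12 have no intron in the annotation. Per the authors' deposited table, 2 of the 8 events, retained intron 1 of ATPG and retained intron 1 of PETM, are in the list set as light-regulated, where 17% of all 22449 events are. For each retained intron the reads without the event were recovered from event reads and percent. They came out as an even whole number (within 0.01) for all 13845 retained introns in both libraries, and 1 spliced read was therefore counted as 2.

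The only intron of ATPG, of 68 bases between coding exons at chr4:15574024-15574091 on the minus strand, is shown because its retention differed between dark and light. Capitals mark the splice site letters at both ends and, after the first 3 bases, the stop codon TAA that the reading frame meets when the intron is kept.
ATPG intron 1: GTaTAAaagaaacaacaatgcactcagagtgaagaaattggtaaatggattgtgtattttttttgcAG
In total mRNA 38 reads lay in the intron in the dark beside 615 spliced reads, and 376 in the light beside 2878 spliced reads. The authors' deposited table gives retention as 3.00% (dark) and 6.13% (light), and the intervals computed from the recovered reads, 2.12 to 4.11 and 5.53 to 6.78, do not overlap. The intron follows 75.0% of the coding bases of the gene. In polysomal mRNA the authors' deposited table gives 1.32% (dark) and 1.44% (light), without reads, so that the depth behind these values is unknown. ATPG itself had the lowest log2 light ratio in total mRNA after PSAE2, 1.51.

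For PETM, PSBQ1 and PSAN the event is numbered on the second gene model, whose acceptor lies a few bases from that of the first model. The 30 bases around both acceptors are shown because the acceptor may bear on which spliced reads stand behind the percent. Junction reads of both acceptors were available for PETM only, so that this was not checked for PSBQ1 and PSAN. Capitals mark the bases between the acceptors, at chr2:11270346-11270375 (plus strand, in the untranslated leader) for PETM, chr4:11335074-11335103 (plus) for PSBQ1 and chr5:25628802-25628831 (minus) for PSAN.
PETM intron 1: tcttgttttctttttcagCAAGgaatggcg
PSBQ1 intron 1: tttgttttgtttggtgagCAGctgggacag
PSAN intron 2: tcgttttctgttttgcagAAAGttccattt
In PETM and PSAN the second model's acceptor lies 4 bases downstream and in PSBQ1 3 bases upstream. The authors' deposited table gives retention of PETM intron 1 as 47.4% (dark) and 76.5% (light). The spliced reads behind these percents numbered 10 (dark) and 37 (light), the same numbers as the junction reads of the second model's acceptor. The acceptor of the first model had 1190 and 3502 junction reads. The authors' deposited table gives its share of junction reads as 99.2% (dark) and 99.0% (light), with intervals from the reads of 98.5 to 99.6 and 98.6 to 99.3. Set against all 1200 and 3539 junction reads, the 18 and 241 intron reads gave a retention of 0.744% in the dark (0.441 to 1.18) and 3.29% in the light (2.89 to 3.74), higher in the light on either base. In the polysomal libraries the authors' deposited table gives 33.3% (dark) and 47.6% (light) for the same intron, without reads. Which junction reads stand behind these polysomal percents could therefore not be checked. The authors' share of the first model's acceptor in the polysomal libraries is 98.7% (dark) and 98.4% (light).

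PSBQ1 intron 1 and PSAN intron 2 had 1 spliced read each behind the percent in both libraries, so that their percents carry little weight. The authors' deposited table gives 86.7% and 98.5% for PSBQ1, with 13 and 131 intron reads, and 66.7% and 97.9% for PSAN, with 4 and 92 intron reads. The intron reads of PSBQ1 were 0.460% of the gene's reads (dark) and 0.442% (light), and those of PSAN 0.0681% and 0.148%. In polysomal mRNA the authors' deposited table gives 60% (dark) and 94.1% (light) for PSBQ1 and 66.7% and 87.1% for PSAN, without reads. LFNR2 had 2 retained introns between coding exons. For intron 1, of 272 bases, the authors' deposited table gives 19.2% (dark) and 16.2% (light), from 46 and 524 intron reads, with intervals from the reads of 14.0 to 25.4 and 14.8 to 17.6. For intron 5, of 117 bases, it gives 7.76% and 7.21%, from 34 and 250 intron reads, with intervals of 5.37 to 10.8 and 6.34 to 8.16. For both introns of LFNR2 the dark and light intervals overlap. In polysomal mRNA the authors' deposited table gives 14.3% (dark) and 15.4% (light) for intron 1, without reads. The remaining event, an alternative donor or acceptor event of PETM, had 1 read (dark) and 13 reads (light), and the authors' deposited table gives 9.09% and 26% for it. The reads without the event behind these percents numbered 10 (dark) and 37 (light), the same numbers as the junction reads of the second model's acceptor in intron 1. Intervals from the reads, 0.230 to 41.3 in the dark and 14.6 to 40.3 in the light, overlap. In polysomal mRNA the authors' deposited table gives 16.3% (dark) and 6.15% (light) for this event, in the opposite direction and without reads.

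**Figure D4:**
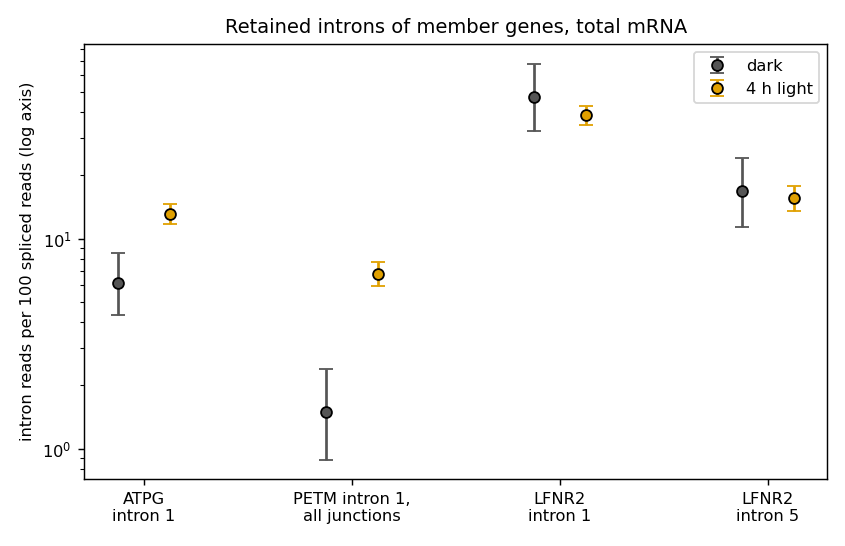
Intron reads per 100 spliced reads (log axis) in total dark and total light for retained introns of ATPG, PETM and LFNR2; bars are exact 95% intervals from the reads, and PETM is set against the junction reads of both acceptors. ATPG goes from 6.18 to 13.1 and PETM from 1.50 to 6.81 without overlap of the intervals, and both LFNR2 introns overlap.

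Other genes of the same pathway give the setting. Over all genes tested 10.7% were at least 2-fold higher in total light and 5.73% lower, and 9.35% were higher in polysomal light and 10.3% lower. Of 24 nuclear assembly factors for these complexes 19 were at least 2-fold higher in total light and 15 in polysomal light, and none lower, with a total median log2 ratio of 1.57 from 0.11 for the insertase ALB3 to 4.62 for PSB28. Of 15 genes that regulate electron transport 10 and 8 were higher, from -0.14 for the plastid terminal oxidase PTOX to 4.43 for the potassium and proton exchanger KEA3. Of 18 nuclear subunits of the chloroplast NDH complex, which returns electrons from ferredoxin to plastoquinone, 17 and 15 were higher, with a median of 2.86 in total mRNA, from 0.60 for NDHS to 4.72 for PNSL3. Of 9 isoforms of the members 7 were tested, and 2 were higher in total and 1 in polysomal mRNA. In total mRNA these were FDC1 at 2.00 and FDC2 at 1.88. In polysomal mRNA it was FDC2 at 1.59, where FDC1 stood at 0.77. The other values in total mRNA were -0.20 for root-type ferredoxin FD3 and 0.21 and 0.54 for the root-type reductases RFNR1 and RFNR2. The second gamma subunit ATPC2 stood at -0.14 and CYTC6A at 0.99. The members' median of 2.57 in total mRNA lay between those of the assembly factors and the NDH subunits.

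The plastid-encoded partners of these subunits were measured at low levels after purification with the Oligotex kit, which binds poly(A) tails. Of 31 genes 26 were tested, of which 3 were at least 2-fold higher in total light (psaJ, psbL and psbF), where 10.7% of all genes were. In polysomal light none was higher and psbM was lower, where 9.35% of all genes were higher and 10.3% lower. Few reads stood behind psbF, 3 (dark) and 25 (light), and behind psbL, 20 and 80. Their median log2 light ratio was 0.26 in total and -0.04 in polysomal mRNA, against 2.57 and 2.33 for the members. The reaction centre gene psaA stood at 2.77 RPKM in total dark and 2.70 in total light, and psbA at 5.18 and 5.01, below the 19.2 RPKM of the least abundant member in the dark. The ATP synthase genes atpE, at 24.77 RPKM in total dark and 44.29 in total light, and atpB, at 20.05 and 28.02, lay above that level. Plastid messengers mostly lack poly(A) tails, and the part of the purification in these values was not tested.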

How the data were processed

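The deposited tables cover 4 libraries, 1 for each group, and hold gene values and splicing events on the TAIR10 build per the submitters' processing notes. Neither the aligner nor the counter, and no use of strand, is named in the labels. Read counts of total mRNA and estimated counts of polysomal mRNA are deposited per gene, per the file headers, with gene length and RPKM by the authors. The authors' log2 ratios were not used. The splicing tables give event reads (counts), percent values and p-values by the authors from a chi-square test, per the file headers, and no such p-value is printed.

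Levels were compared as log2 (RPKM + 1), with a pseudocount of 1, over the 17684 of 18584 fully listed genes whose mean reached 1 RPKM. A gene was counted as higher or lower at 2-fold. Fold values are RPKM ratios with exact (Clopper-Pearson) 95% intervals from the reads, estimated counts rounded. The running median over length used 501 genes. TMM factors came from edgeR 4.0.16 in R 4.3.3, and other steps from Python 3.11.15, pandas 2.3.3, SciPy 1.17.1 and Biopython 1.88. Ratio and interval steps were tested on simulated data. All 33 members were named, and the pairs and the extremes of each complex were given in full. The members and the gene lists were chosen with earlier results of these data known. Sequences and gene models are those of RefSeq TAIR10.1, matched by locus tag for 33 of 33 members, and the splicing coordinates printed are those of this annotation.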

Additional observations from a re-analysis of the deposited data

How the results depend on the processing

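With 1 library per group no replicate could be left out. No paired analysis was possible because each group has 1 library and the results come from no test. The counts of members at least 2-fold higher or lower kept within 1.5 times of the reported count under every alternative, except that with TMM size factors 1 member (PETM) was at least 2-fold higher in the light shift where 0 were reported. The median log2 light ratio in total mRNA was 2.54 to 2.61 under the alternatives. In polysomal mRNA it was 2.27 with a pseudocount of 5, 2.55 centred on genes of at least 5 RPKM and 2.54 with TMM size factors. The median polysomal over total ratio in the dark was 2.09, 2.26 and 2.47 under the same alternatives, 1.55 with the length trend removed and 2.01 with RPKM recomputed from deposited reads and length. In the light it was 2.23 when centred, 2.48 with TMM size factors, 1.31 with the length trend removed and 1.78 recomputed. The median light shift was -0.15 when centred, -0.12 with TMM size factors and -0.20 with the length trend removed. Members with a light shift above 0 numbered 9 as reported, 14 when centred and 14 with TMM size factors. The median over all genes moves with these scalings too, from -0.31 to 0.12 with TMM size factors for polysomal over total mRNA in the light, and ATPC1 there goes from -0.35 to 0.17. The cause was not tested. A pseudocount of 0.1 and no filter on low values changed none of the counts or medians by more than these limits. The recomputed RPKM and the base of the PETM percents were chosen after seeing the data. With at least 20 event reads required in 1 library, 7 of the 8 splicing events remained. The PSBQ1 and PSAN percents rest on 1 spliced read. As shares of deposited reads instead of RPKM, 28 of the 32 pair shares moved out of their counting intervals, and the major copy turned in 2, PSAE in total dark and PSBQ in total light.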

Other observations

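Among genes of the pathway that are no members, PSBS, the sensor of lumen acidity in energy dissipation, stood at 60.9 RPKM (dark) and 874 (light) in total mRNA and 128 (dark) and 1091 (light) in polysomal mRNA. PSB28, an assembly factor of photosystem II, stood at 4.01, 122, 50.1 and 498 RPKM in the same order, and its light shift of the polysomal over total ratio was -1.34. NDHM, PNSL3 and NDHN of the NDH complex had shifts of -1.45, -1.12 and -1.11. PGR5, of cyclic electron flow, had a polysomal over total log2 ratio of 3.15 (dark) and 3.26 (light). The plastid gene psaJ stood at 1.69 RPKM in total dark and 22.2 in total light, and at 14.9 and 11.8 in polysomal mRNA. These genes were chosen after their values were seen.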
